A study of Drosophila melanogaster with 2 samples.

Results

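CHES-1-like, Tlk, scyl and CG43245 are the 4 protein-coding genes of Drosophila melanogaster with the most peak summits of the CG11085-eGFP fusion protein nearest to their transcription start sites (TSSs). They were chosen by that measured number, counted over the authors' conservative peak list, so the number is a description and nothing was tested on it. CHES-1-like had 9 summits, CG43245 had 8, and Tlk and scyl had 7 each. Together the 4 genes, of 13945 protein-coding genes on the 6 chromosome arms, held 31 of the 2610 conservative summits on those arms. Over all these genes, 14.7% had at least 1 conservative summit and 0.0287% had 7 or more, which is the 4 genes themselves. Just outside the choice, Hr4 and shn had 6 summits each and 12 further genes had 5.

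The study applied chromatin immunoprecipitation with sequencing (ChIP-seq), in which DNA bound by a protein is recovered with an antibody and sequenced, to whole embryos, aged 0 to 24 hours, of a transgenic fly strain making a CG11085-eGFP fusion protein. The antibody was directed against GFP, the chromatin was sonicated to 200 to 800 bp, and 2 biological replicates were made from the same strain. CG11085 is a homeobox gene, a class of genes whose proteins bind DNA through the homeodomain. Each peak carries a summit, the single base where enrichment is highest, and a signal value written by the authors' peak caller, whose scale is not stated. A conservative peak is one that both replicates rank alike at a global irreproducible discovery rate (IDR) of at most 0.00999.

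Binding in whole embryos is an average over all tissues and stages present, so a strong site in few cells and a weak site in many cells cannot be told apart. The peak lists give no read totals, so the depth is unknown and no counting interval could be attached to a signal. No untagged or input library was analysed here on its own, so the background at the same positions is not given.

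A transcription factor often binds a gene at several separate places, in promoters, in introns and in the sequence between genes. Clusters of such sites are known from developmental control genes of the fly, whose long first introns and flanking sequence hold many enhancers. Assigning a site to the gene with the nearest TSS is a convention, since enhancers can act on a gene other than the nearest. CHES-1-like encodes a transcription factor with a forkhead DNA-binding domain. Tlk encodes the Tousled-like kinase, which phosphorylates the histone chaperone Asf1 and acts in chromatin assembly. The product of scyl, Scylla, restrains growth by inhibiting TOR signalling and is induced by low oxygen and other stress. CG43245 encodes an uncharacterized protein, for which no role is given here.

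The 101 bases around the strongest summit of each gene are shown because these sites carry each gene's highest signal. They are from the forward strand of the NCBI RefSeq copy of the Release 6 (dm6) genome, and capitals mark matches, on either strand, to words searched at every summit.
CHES-1-like, chrX:7706956-7707056: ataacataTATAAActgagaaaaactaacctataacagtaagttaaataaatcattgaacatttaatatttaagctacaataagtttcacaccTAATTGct
Tlk, chrX:3742179-3742279: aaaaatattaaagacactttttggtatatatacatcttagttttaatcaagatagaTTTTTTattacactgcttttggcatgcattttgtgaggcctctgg
scyl, chr3L:11256242-11256342: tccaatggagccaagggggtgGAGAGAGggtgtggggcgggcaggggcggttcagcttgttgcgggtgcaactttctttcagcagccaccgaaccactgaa
CG43245, chr3L:10752759-10752859: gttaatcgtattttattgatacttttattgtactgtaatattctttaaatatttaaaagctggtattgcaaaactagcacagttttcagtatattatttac

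The strongest sites of CHES-1-like, Tlk and CG43245 were rich in A and T, with GC contents of 22.8%, 28.7% and 22.8%, whereas that of scyl had a GC content of 61.4%. The CHES-1-like window holds TATAAA and also TAATTG, a word of the kind that homeodomains bind. The Tlk window holds a run of 6 T, and the scyl window an overlapping pair of GAGAG matches. The CG43245 window held none of the 14 words.

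Length did not unite the 4 genes. Tlk spans 69.8 kb and ranked 176th of the 13945 genes in annotated length, and CHES-1-like spans 27.0 kb and ranked 744th. scyl, at 3866 bp, ranked 4308th, and CG43245, at 1475 bp, ranked 9260th, against a median gene length of 2.17 kb. The label of long genes therefore held for Tlk and CHES-1-like and not for scyl and CG43245. All 4 genes had in common a wide stretch of chromosome nearer to their own TSSs than to those of any other protein-coding gene. That stretch was 65.2 kb for Tlk, 52.2 kb for CG43245, 48.7 kb for CHES-1-like and 29.3 kb for scyl, against a median of 4.33 kb over all genes. Because summits were counted by nearest TSS, the choice itself favours a wide stretch. Wide stretches were not particular to the 4 genes: Hr4 and shn, just outside the choice, had 59.7 and 47.6 kb.

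Most genes with a stretch as wide had no conservative summit, though a smaller share than over all 13945 genes, of which 11893 had none. Of the 163 genes with a stretch at least as wide as that of Tlk, 107 had none. The same held for 181 of 274 genes at the width of CG43245, 202 of 317 at the width of CHES-1-like and 586 of 856 at the width of scyl. Summits lay at 2.39 per 10 kb of this stretch at scyl, 1.85 at CHES-1-like, 1.53 at CG43245 and 1.07 at Tlk, against 0.195 per 10 kb over the 6 arms. These densities follow from the choice of the genes by their counts and are given as a description.

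**Figure D1:**
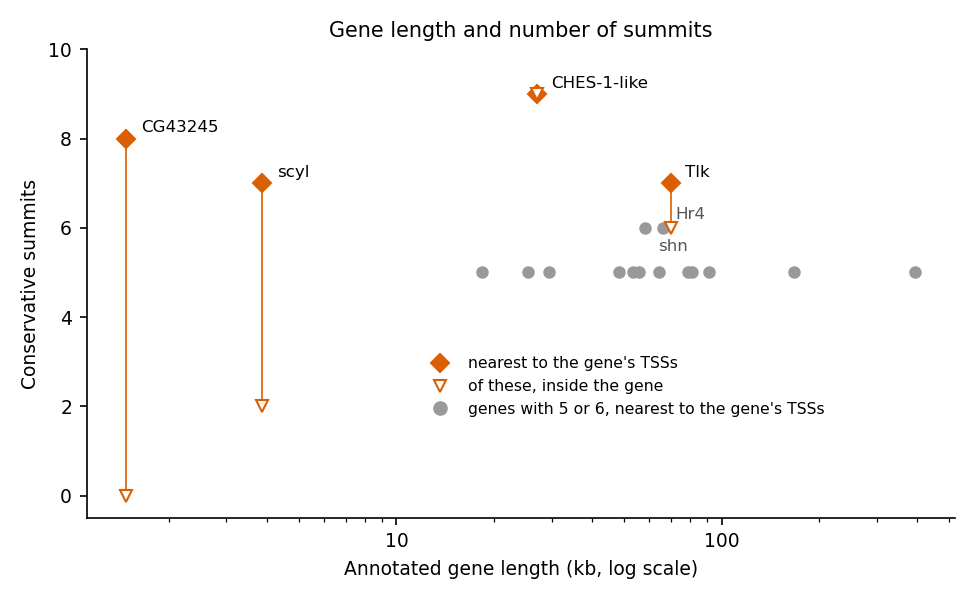
Number of conservative summits (vertical axis) against annotated gene length in kb (horizontal axis, log scale). Diamonds stand for the 4 genes by nearest TSS, open triangles for those of their summits inside the gene, and grey circles for the 14 genes with 5 or 6 summits; CG43245 has 8 by nearest TSS and 0 inside, and CHES-1-like 9 and 9.

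CHES-1-like (FBgn0029504, X:7682338-7709385, reverse strand, dm6) held all 9 of its summits inside its first intron, which spans 18.998 kb of the longest annotated transcript. The gene has 4 annotated TSSs, 3 of which lie within that intron and start shorter transcripts. None of the 9 summits was nearest to the first TSS. TSS 2 had 4 of them, with 2 on each side, TSS 3 had 3, all upstream, and TSS 4 had 2, both downstream.

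The strongest CHES-1-like summit, at X:7707006, had a pooled signal of 559.6, with 368 in replicate 1 and 208 in replicate 2. It lay 2043 bp upstream of TSS 2 and 769 bp from the TSS of lncRNA:CR43287, a non-coding gene within the intron on the opposite strand. The 3 summits nearest to TSS 3 formed a second strong group. The summit 3735 bp upstream of that TSS had a pooled signal of 307, with 193 in replicate 1 and 115 in replicate 2. The summit 1696 bp upstream had 339, with 207 in replicate 1 and 126 in replicate 2. The summit 382 bp upstream, the only CHES-1-like summit within 500 bp of a TSS, had 251, with 163 in replicate 1 and 97.0 in replicate 2.

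The other 5 CHES-1-like summits were weaker, with pooled signals between 85.8 and 148, and all lay below the weakest of those 4 in both replicates. Neighbouring summits were a median of 1589.5 bp apart, from 391 to 4164 bp, over a span of 15341 bp. The closest pair had pooled signals of 85.8 and 97.5.

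Tlk (FBgn0283657, X:3720007-3789770, forward strand) had 6 of its 7 summits in the second intron of its longest transcript, a 60.007 kb intron that contains 7 of the gene's 8 annotated TSSs. The summits were spread over those TSSs with no more than 2 at any of them, and TSS 2 and TSS 8 had none. The remaining summit lay in the 371 bp between Tlk and Rala, a Ras-like GTPase gene transcribed in the other direction.

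The strongest Tlk summit, at X:3742229, had a pooled signal of 889, with 558 in replicate 1 and 341 in replicate 2. It was 27th in signal among the 2610 conservative peaks and lay 2332 bp downstream of TSS 3. A pair of sites lay near the sixth and seventh TSS. The stronger had a pooled signal of 307, with 196 in replicate 1 and 113 in replicate 2, and the weaker had 114, with 77.6 in replicate 1 and 37.0 in replicate 2. The summit at X:3750747 stood apart in its replicates, with 71.8 in replicate 1 and 76.9 in replicate 2: it was the only one of the 31 with the higher signal in replicate 2.

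The promoter summit between Tlk and Rala was the weakest of the 7, with a pooled signal of 76.2, 50.9 in replicate 1 and 27.9 in replicate 2. It lay 176 bp upstream of the first Tlk TSS and 196 bp from the Rala TSS, so it could be assigned to either gene. Its sequence is shown because it was the only one of the 31 windows with a pair of CGATA matches, which are in capitals. CGATA forms part of TATCGATA, a word found in many fly housekeeping promoters.
Tlk promoter, chrX:3719781-3719881: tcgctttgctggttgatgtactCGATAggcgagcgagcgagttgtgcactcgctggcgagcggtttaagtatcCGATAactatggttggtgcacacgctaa

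Tlk summits were more widely spaced than those of CHES-1-like, with a median of 3981.5 bp, a range of 555 to 22750 bp and a span of 54641 bp. Their signals also covered a wider range, 76.2 to 889 against 85.8 to 559.6 at CHES-1-like, while the median was 149 at Tlk and 148 at CHES-1-like.

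scyl (FBgn0041094, 3L:11252307-11256172, forward strand) has 1 annotated TSS, and all 7 of its summits lay downstream of it. The first 2 fell inside the gene, 15 bp and 624 bp past the TSS. The first of these had a pooled signal of 89.8, with 61.5 in replicate 1 and 26.5 in replicate 2, and the second, in an exon, had 98.4, with 67.4 in replicate 1 and 30.1 in replicate 2. The other 5 lay beyond the 3' end of the gene, at 120, 4348, 4921, 5417 and 6157 bp past it. They sat in a 17.787 kb gap that ends at the non-coding gene lncRNA:CR44720, and the next protein-coding gene, Dyro, lies 31.763 kb away.

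The strongest scyl summit was the one 120 bp past the gene end, with a pooled signal of 166, 104 in replicate 1 and 55.2 in replicate 2. The summit 5417 bp past the end had 152, with 91.9 in replicate 1 and 63.2 in replicate 2, and was the strongest of the 7 in replicate 2. The replicates therefore placed different sites first at scyl. Signals at scyl stayed within a narrow range, 72.0 to 166, and the median spacing, 674.5 bp, was the shortest of the 4 genes.

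CG43245 (FBgn0262890, 3L:10771925-10773399, forward strand) held none of its 8 summits. Upstream, 6 of them lay in a 75.047 kb gap between CG43245 and NijA, at 1873 to 33210 bp from the TSS. The other 2 lay 4659 and 4860 bp downstream of the TSS, in an 11.19 kb gap before the non-coding gene lncRNA:CR44544. They belong to CG43245 only because no other protein-coding TSS was nearer.

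The strongest CG43245 site stood alone, 19116 bp upstream, with a pooled signal of 367, 211 in replicate 1 and 149 in replicate 2. The next, 32039 bp upstream, had 199, with 112 in replicate 1 and 75.0 in replicate 2. The site 33210 bp upstream had 126, with 83.6 in replicate 1 and 50.5 in replicate 2. Nearer to the gene, the site 2073 bp upstream had 103, with 50.7 in replicate 1 and 50.2 in replicate 2, and the one 4659 bp downstream had 83.6, with 49.1 in replicate 1 and 39.0 in replicate 2.

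The count of 8 at CG43245 included 3 weak summits, each 200 or 201 bp from one of these stronger sites. Their pooled signals were 17.9, 43.8 and 5.31, but each carried the same replicate values as its neighbour, because both peaks were matched to the same region in each replicate. Counting such shared regions once leaves 5 separate sites at CG43245 and 28 over the 4 genes, and changes no count at CHES-1-like, Tlk or scyl. Over all conservative peaks, 5.21% shared a region with a stronger peak in this way. The pair 32 kb upstream is shown because its windows do not overlap and hold different words: the stronger has TGAGTCA, the reverse complement of TGACTCA, and the weaker has GCCAT and GAGAG.
CG43245 stronger site of the pair, chr3L:10739836-10739936: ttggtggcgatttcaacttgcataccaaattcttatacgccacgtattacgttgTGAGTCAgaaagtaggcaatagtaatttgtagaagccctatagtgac
CG43245 weaker site of the pair, chr3L:10740037-10740137: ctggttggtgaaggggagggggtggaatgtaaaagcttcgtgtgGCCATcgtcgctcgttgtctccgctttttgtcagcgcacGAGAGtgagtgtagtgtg

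**Figure D2:**
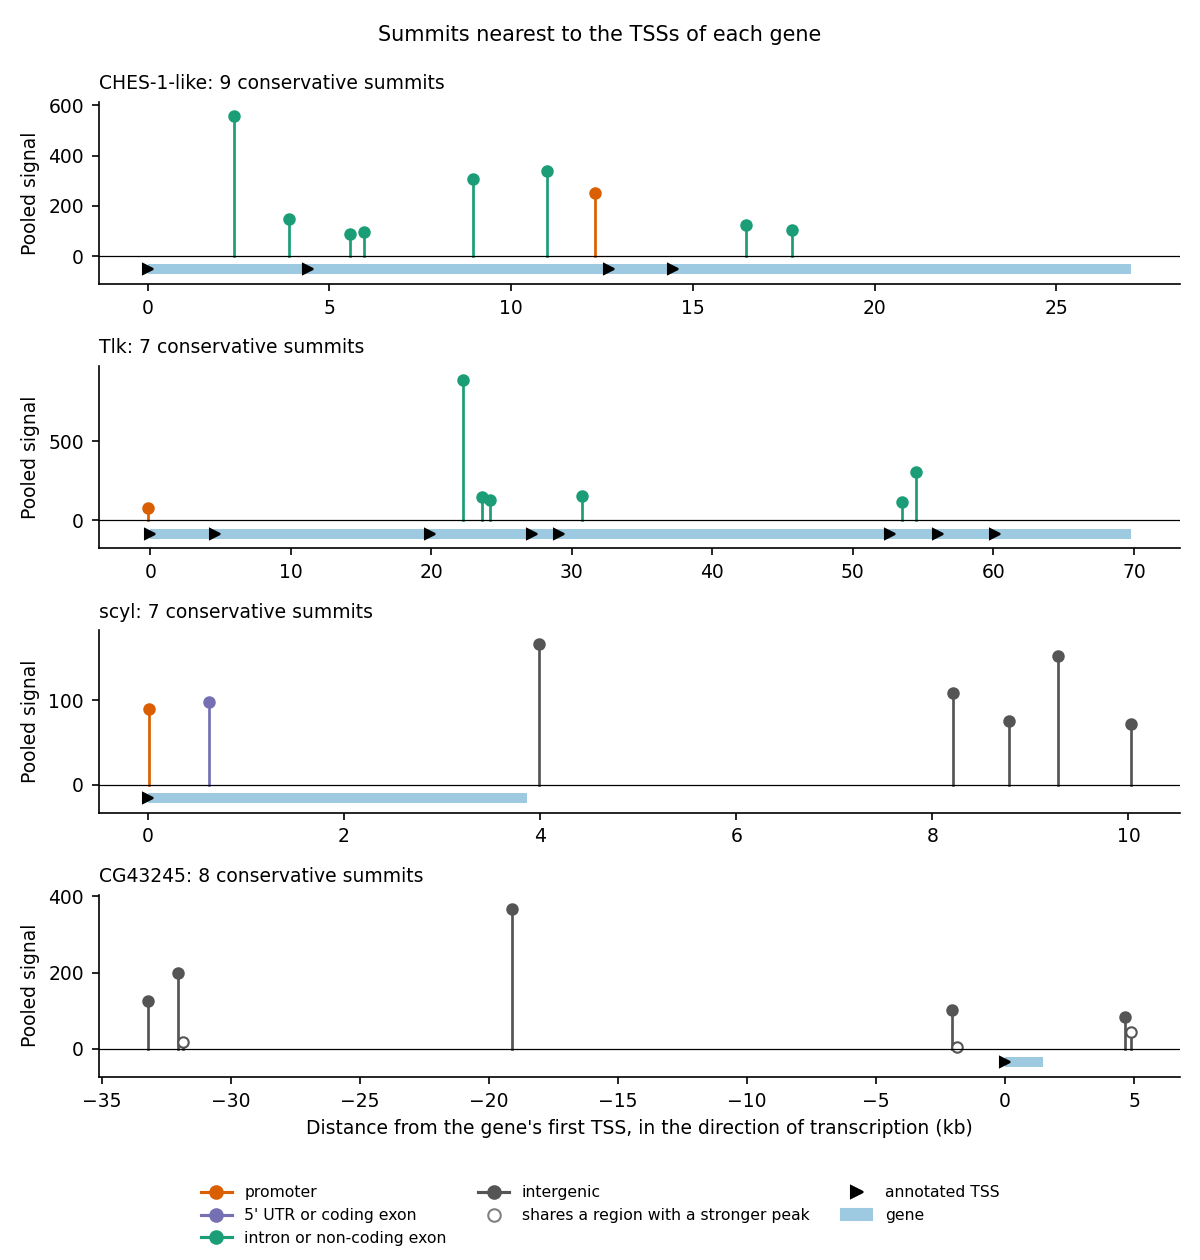
Pooled signal of each summit (vertical axis) against its distance in kb from the gene's first TSS, in the direction of transcription (horizontal axis), for the 4 genes. Bars show the gene and arrowheads its annotated TSSs; the 9 summits of CHES-1-like and 6 of the 7 of Tlk lie inside the gene, while 5 of 7 at scyl and 8 of 8 at CG43245 lie outside it, and open circles mark the 3 that share a region with a stronger peak.

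The 4 genes thus fell into pairs by the place of their sites. At CHES-1-like and Tlk, 14 of 16 summits were intronic and more than 500 bp from any TSS, and the other 2 were in promoters. At scyl and CG43245, 13 of 15 were intergenic, 1 was in a promoter and 1 in an exon. Over the 31 summits, 9.68% were within 500 bp of a TSS, against 55.3% of all conservative summits. The 95% Wilson interval for counting error only was 3.35 to 24.9%. It treats the 31 summits as independent, but they lie at 4 chosen genes and 3 share a region with a stronger peak. The interval is therefore too narrow for a comparison with the 55.3%. Introns held 45.2% of the 31 and 29.9% of all, and intergenic sequence 41.9% of the 31 and 11.5% of all. These shares are not independent of the way the genes were chosen and were not tested.

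The median pooled signal was 122 over the 31 summits, with quartiles of 87.8 and 183, against 124 with quartiles of 91.8 and 184 over all 2610. Without the peaks that share a region with a stronger one, it was 129 over 28 summits and 128 over 2474. Of the 31, 15 lay above the overall median and 6 in the top decile, 5 of these at CHES-1-like and Tlk. Intronic summits of the 4 genes had a median of 149, against 117 over all 781 intronic summits, and intergenic ones had 103, against 109 over all 299 intergenic summits; the 10 intergenic ones that share no region had 118.

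Most regions that the IDR comparison ranked near these genes were not conservative peaks. Of those nearest to the TSSs of each gene, 9 of 50 (18%) were conservative at CHES-1-like and 7 of 60 (11.7%) at Tlk. At scyl 7 of 31 (22.6%) were conservative, and at CG43245 8 of 72 (11.1%). Over the arms, 1.83% of the 142665 ranked regions were conservative. The higher shares at the 4 genes follow from their choice by conservative summits. The strongest region that missed the conservative threshold had a pooled signal of 100.2 at CHES-1-like, above 2 of its 9 conservative summits. It had 38.0 in replicate 1 and 62.5 in replicate 2. The authors' larger thresholded list holds a peak near the 4 genes with this same pooled signal. At CG43245 the strongest region that missed the conservative threshold had 96.2, with 27.6 in replicate 1 and 11.6 in replicate 2. At Tlk it had 76.5, with 66.7 in replicate 1 and 9.09 in replicate 2, and at scyl 67.3, with 50.2 in replicate 1 and 17.0 in replicate 2.

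Replicate 1 had the higher signal at 30 of the 31 summits, against 91.2% of all conservative peaks. The median ratio of replicate 1 over replicate 2 was 1.63 over the 31, with quartiles of 1.43 and 1.80, and 1.51 over all peaks. By gene it was 1.89 at scyl, 1.67 at CHES-1-like, 1.63 at Tlk and 1.34 at CG43245. The direction was thus that of the whole list, and the scale of each replicate's signal is not stated.

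The replicates placed the same site first at CHES-1-like, Tlk and CG43245. Spearman's rho between them was 0.833 over 9 summits at CHES-1-like, 0.821 over 7 at scyl and 0.75 over 7 at Tlk. At CG43245 it was 1 over 8, of which 3 repeat the values of a neighbour. Over the 28 summits that share no region it was 0.858. Over all 2610 conservative peaks, with those that share a region kept, it was 0.710. These values are descriptions, since summits of one gene share their chromosome region and libraries, and conservative peaks were selected for like ranks.

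**Figure D3:**
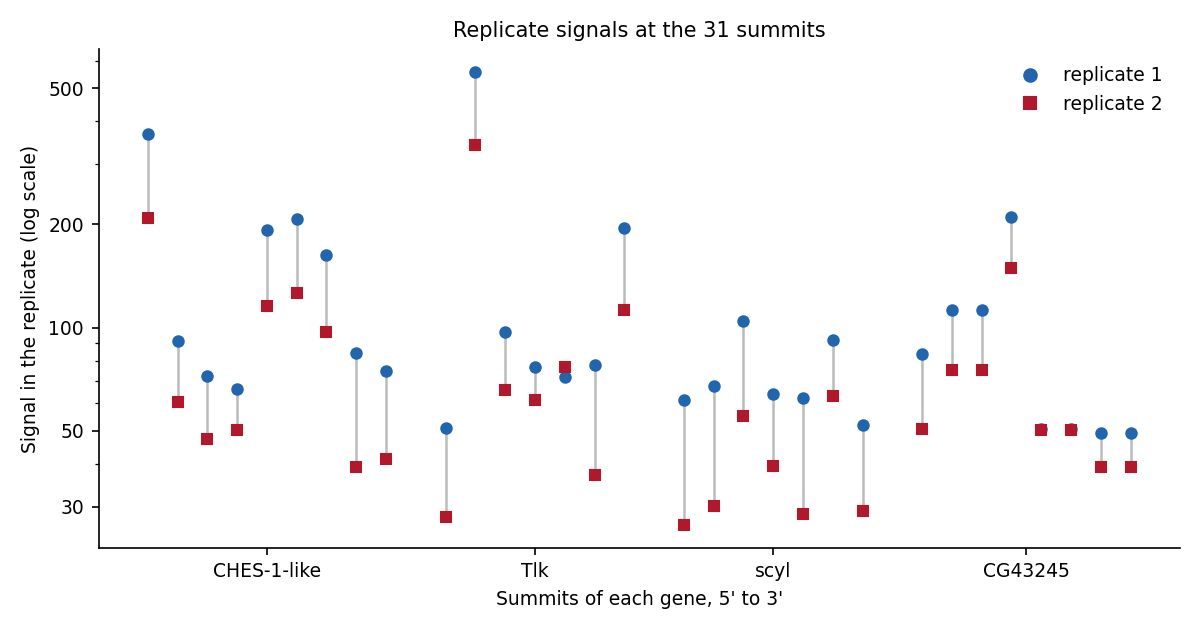
Signal in replicate 1 (circles) and replicate 2 (squares) on a log scale (vertical axis) for each of the 31 summits, ordered 5' to 3' within its gene (horizontal axis). Grey lines join the replicates of one summit; replicate 1 is higher at 30, and the single exception is the fifth Tlk summit, with 71.8 in replicate 1 and 76.9 in replicate 2.

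Each replicate also has its own thresholded list, made without the other. Of the 31 peaks, 21 overlapped a peak of the replicate 1 list, 67.7% against 66.1% of all conservative peaks, and 20 overlapped one of the replicate 2 list, 64.5% against 61.9% of all. Both lists held 17 of them, 54.8% against 50.5% of all, and neither list held 7, 22.6% against 22.5% of all. The counts by gene were small and were not tested. Each of the 9 CHES-1-like peaks was in at least 1 list, with 8 in that of replicate 1 and 7 in that of replicate 2. At Tlk the promoter peak alone was in neither list. At scyl 4 of 7 were in neither, and at CG43245 2 of 8, which are a pair with the same region in each replicate.

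The sequence under the 31 summits was rich in A and T. The median GC content of the 101 bases was 29.7%, against 41.6% in windows 250 bp to each side of them, and over all conservative summits it was 33.7%, against 43.6% beside them. The 14 intronic summits had a median of 28.2% and flanks at 43.1%, and 12 of them lay below their own flanks. The 13 intergenic summits had a median of 39.6% and flanks at 39.6%, but this rests on the 3 weak CG43245 summits that share a region: without them, in a comparison chosen after seeing the data, the other 10 had a median of 29.7% and flanks at 41.1%, and 7 of the 10 lay below their own flanks. All intronic conservative summits had a median of 32.7% and flanks at 43.6%, and all intergenic ones 36.6% and flanks at 43.1%. The share below their own flanks was 64.5% of the 31 summits, against 69% of all conservative summits. It was 85.7% of the 14 intronic summits against 75.8% of all intronic ones, and 53.8% of the 13 intergenic summits against 58.2% of all intergenic ones. Without the peaks that share a region with a stronger one, it was 71.4% of 28 summits of the 4 genes, against 70.5% of all 2474. At CHES-1-like the GC content was 17.8 to 42.6%, and at Tlk the 6 intronic windows lay between 26.7 and 35.6%. At scyl it ran between 20.8 and 61.4%, and at CG43245 between 22.8 and 57.4%.

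**Figure D4:**
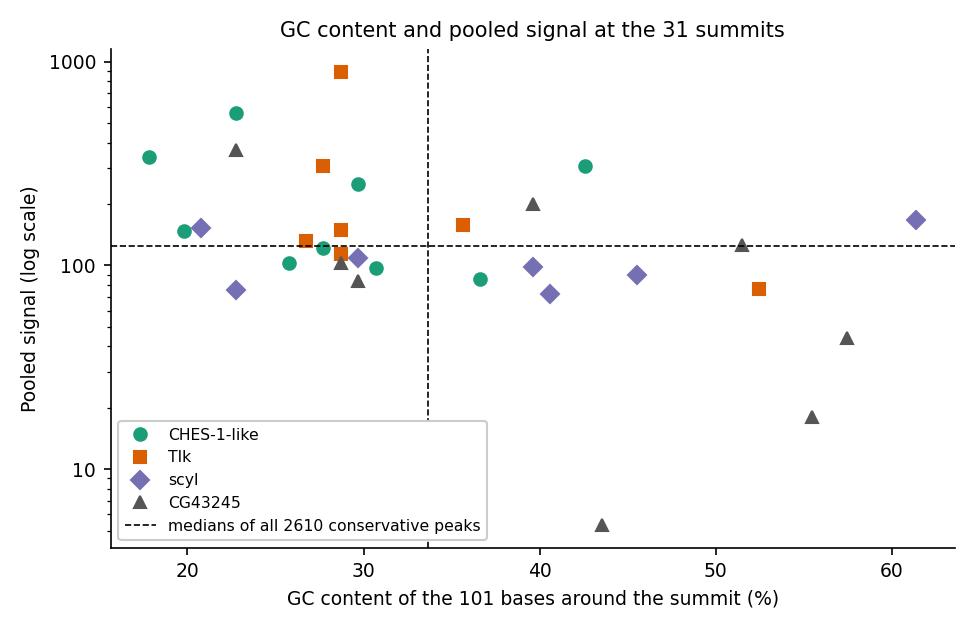
Pooled signal on a log scale (vertical axis) against the GC content of the 101 bases around the summit in percent (horizontal axis), with one symbol per gene. Dashed lines mark the medians of all 2610 conservative peaks, 33.7% and 124; the summits of CHES-1-like and Tlk mostly lie left of the GC line, and those of scyl and CG43245 on both sides.

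Of the 14 words searched on both strands of those 101 bases, AAAAAA was the most frequent. It was present at 14 of the 31 summits, 45.2%, against 27.4% of their flanks, and at 25.9% of all conservative summits against 19% of their flanks. It was in 5 of 7 windows at Tlk, 5 of 7 at scyl, 2 of 9 at CHES-1-like and 2 of 8 at CG43245. TATAAA was at 8 of the 31, 25.8% against 4.84% of their flanks, and at 21.0% of all summits; 5 of the 8 were at CHES-1-like. Both words are made wholly of A and T. The median GC content was 27.7% at CHES-1-like, 28.7% at Tlk, 39.6% at scyl and 41.6% at CG43245. The CG43245 median includes its 3 weak summits that share a region, at 55.4%, 43.6% and 57.4%. Its 5 other windows had 51.5%, 39.6%, 22.8%, 28.7% and 29.7%. The part of base composition in these word counts was not tested.

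TAATTG and TAATTA, words of the kind that homeodomains bind, were at few of these summits. TAATTG was at 4 of the 31, 12.9% against 11.3% of their flanks and 11% of all conservative summits. TAATTA was at 1, 3.23% against 6.45% of their flanks and 8.66% of all summits. GAGAG, the core of GAGA factor sites, was at 4, 12.9% against 21% of their flanks and 10.1% of all summits. CGATA was at 2, 6.45% against 6.45% of their flanks and 17.7% of all summits. GCCAT was at 2, 6.45% against 11.3% of their flanks and 15.6% of all summits. Both GCCAT matches were at weak CG43245 summits that share a region with a stronger peak. TGACTCA was at 1, and was at 0.651% of all summits. The other 6 words were in none of the 31 windows. CACACA, absent there, was in 19.4% of their flanks and at 6.13% of all summits. Of all conservative summits, 4.44% had CAGCTG and 2.41% had TATCGATA, while CACGTG was at 0.843%, GGTCACACT at 0.613% and CAGGTAG at 0.307%. A match is a string of letters and not a measured contact, and a missing word says only that these letters are not in that window.

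Other genes of the same families and pathways were looked up in the same peak list. Of 17 forkhead genes, 4 had at least 1 conservative summit nearest to their TSSs, 23.5% against 14.7% of all protein-coding genes. CHES-1-like is one of the 4 by the choice of genes, and without it 3 of 16 had a summit. foxo, which acts downstream of insulin signalling, had 2 summits, the stronger 3340 bp upstream with a pooled signal of 518, 292 in replicate 1 and 219 in replicate 2. The segmentation gene slp2 had 1 summit 4334 bp upstream with 177, 104 in replicate 1 and 66.7 in replicate 2. bin, a gene of the visceral mesoderm, had 1 summit 1404 bp upstream with 115, 67.9 in replicate 1 and 40.8 in replicate 2. No other forkhead gene reached more than 2 summits, against 9 at CHES-1-like.

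Among 6 genes of chromatin assembly, Tlk was the only one with a conservative summit, 16.7% against 14.7% of all protein-coding genes. Tlk has summits by the choice of genes, and without it 0 of 5 had one. asf1, which encodes the substrate of Tlk, had none, and neither had the other 4 genes listed, which encode the 3 subunits of chromatin assembly factor 1 and the histone chaperone Hira. Of 13 genes of TOR signalling and the hypoxia response, 4 had a summit, 30.8% against 14.7% of all genes. The listed symbols Tor and fatiga matched no annotated gene name and are not among the 13. scyl is one of the 4 by the choice of genes, and without it 3 of 12 had a summit. foxo, listed here too, is described above. sima, which encodes the fly hypoxia-inducible factor, had 2, the stronger 6690 bp upstream with a pooled signal of 207, 116 in replicate 1 and 81.1 in replicate 2. Thor, a translational repressor controlled by TOR, had 1 summit 40 bp downstream of its TSS with 98.4, 70.0 in replicate 1 and 30.2 in replicate 2. chrb, the paralogue of scyl, had none. With lists this short, a gene more or less moves these shares widely.

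The genes just outside the choice mostly held their summits inside the gene. Hr4, a nuclear receptor gene of 66.0 kb, and shn, a zinc finger gene of 58.3 kb that acts in Dpp signalling, each had all 6 summits inside the gene. Of the 12 genes with 5 summits, 7 held all 5 and 4 held 4. The remaining one, chinmo, named after its values were seen, held none of its 5. The median pooled signal was 149 at Tlk, 148 at CHES-1-like, 98.4 at scyl and 93.1 at CG43245, beside 175 at Hr4 and 110.1 at shn. The CG43245 median includes its 3 weak summits that share a region, with signals of 17.9, 5.31 and 43.8. With its shared regions counted once, CG43245 has 5 sites, fewer than Hr4 and shn, with signals between 83.6 and 367.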

How the data were processed

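Peaks of 2 biological replicates were analysed from the authors' deposited peak lists on dm6, which are, per the labels, from the same transgenic strain. The deposited signal per peak is the value of the authors' peak caller, and the deposited score is the IDR score scaled to at most 1000, with 830 the lowest in the conservative list. The −log10 of the global IDR was read from the authors' deposited ranked comparison of the replicates, with their matched signals. Peaks were thresholded by IDR over both replicates or within 1 replicate, and a control read set entered, per the file lists deposited with the samples. Which aligner and caller were used is not given in the sources used here.

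Each summit was assigned to the protein-coding gene with the nearest TSS of Ensembl release 115, on the 6 arms, with Python 3.11.15 and numpy 2.4.6. Positions are 1-based. A summit within 500 bp of any TSS was classed as promoter, then exon, intron or intergenic. Introns were counted in the longest transcript. Recovery needed an overlap of 1 bp. The replicates' columns of the ranked comparison carry no names and were told apart because the signals of all 31 peaks stand unchanged in each replicate's own ranked list. Assignment, classes and word searches were tested on simulated data. The genes, words and gene lists were chosen with earlier results of these data known. Named beside the 4 genes were genes that hold or start within 1 kb of a summit, the next genes by count (of the ties at 5, none), listed genes with a summit and, outside that rule, genes that bound a gap and listed partners at 0. Of 15 symbols in the TOR and hypoxia list, 13 matched. No test was run. Alternatives changed the peak list, threshold, assignment, promoter window, overlap and word window. A total of 39 of 2649 conservative peaks off the arms were left out.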

Additional observations from a re-analysis of the deposited data

How the results depend on the processing

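Of 51 alternative values for the counts, positions, spacing, signals and recovery, 36 stayed within the limits set for a change and 15 did not. Tlk stayed within them throughout. At a global IDR of 0.001, CHES-1-like had 5 summits, scyl 2 and CG43245 4, the median spacing was 1769 bp and the median pooled signal 183, since fewer and stronger peaks pass. With one replicate's list alone, scyl had 3 summits with either, CG43245 had 3 to 4, and the median spacing was 1562 to 2001.5 bp, against 1395 bp. The larger list gave 5 at CG43245, and shared regions counted once also gave 5. By gene span instead of nearest TSS, scyl had 2 and CG43245 0, and the median signal was 148. Widening the word window moved 7 words, as more bases were searched, and without shared regions GCCAT was at 0 summits. No paired analysis was possible because the study has 1 group and no test was run. The intergenic GC content, whose main value rests on the shared regions, is given both ways above. Unknown depth limits every statement on sites that missed the threshold.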
